A study of Mus musculus with 14 samples.

Results

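Bone marrow plugs of BMAd-Pnpla2-/- mice fed ad libitum (AL) were compared with those of BMAd-Pnpla2+/+ mice fed AL, by RNAseq of all genes. These are 7 of the 14 samples of the series, 3 of the BMAd-Pnpla2-/- and 4 of the BMAd-Pnpla2+/+ genotype, chosen by their labelled genotype and diet. The other 7 were taken under caloric restriction (CR). All were males of 24 weeks on the mixed C57BL6/SJL background, and each sample pooled the distal tibial plugs of 2 animals, so the samples and not the animals are the replicates. Both genotypes carried the recombinase system of the model, an Osterix-driven FLPo that turns on a Cre placed behind Adipoq, so that Cre arises where both promoters have been active. The genotypes differed by floxed alleles of Pnpla2, and the BMAd-Pnpla2+/+ animals were littermates with normal alleles. By the study's own account, Cre expression from this cassette is low, the cassette itself reduces adiponectin protein, and recombination is less frequent in young mice. The study also reports that in reporter mice of older ages most marrow adipocytes had recombined. In BMAd-Pnpla2-/- mice it reports less ATGL protein in caudal vertebrae. Distal tibial explants of BMAd-Pnpla2-/- females showed no rise in lipolysis with forskolin.

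Pnpla2 encodes adipose triglyceride lipase (ATGL), the enzyme that takes the first fatty acid from a stored triacylglycerol. ABHD5 activates it, G0S2 inhibits it, and hormone-sensitive lipase (Lipe) and monoacylglycerol lipase (Mgll) take the next steps. Perilipin 1 and CIDEC coat the lipid droplet of the adipocyte and restrain or shape its breakdown. Marrow adipocytes share the distal tibia with blood-forming, stromal and bone cells, whose RNA a flushed plug also holds.

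The counts on the reverse strand summed to between 19688849 and 21441514 per sample, and 4.304% to 4.62% of the reads assigned on either strand lay on the opposite one. Levels are given as CPM, library-scaled counts after TMM normalization. The adipocyte markers were present, at levels that differed widely between genes. Per kilobase of exon, the level of Adipoq in BMAd-Pnpla2+/+ AL samples averaged 14.3 CPM, against 465 CPM for Cfd and 15861 CPM for the alpha globin gene Hba-a1. The summed level of the 6 skeletal muscle genes tested of a list of 12 was at most 28.6 CPM in BMAd-Pnpla2+/+ AL samples, reached in replicate 2, and 11.9 CPM in BMAd-Pnpla2-/- AL samples. On the first principal component (40.3% of the variance of the 500 most variable genes) this replicate 2 stood at 17.4, and the other 6 samples between -11.6 and 3.92, with the genotypes overlapping.

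Of the 16306 genes tested with edgeR's quasi-likelihood test, 0 (0.0%) passed an adjusted p (padj) of 0.05. The smallest padj was 0.362, that of Mir6236. At an unadjusted p under 0.05 there were 630 genes (3.86% of all tested), 237 higher (1.45%) and 393 lower (2.41%) in BMAd-Pnpla2-/- AL samples. DESeq2 on the same 7 samples placed 18 genes under a padj of 0.05, and limma-voom with sample weights placed 0, with 743 and 1379 genes respectively at an unadjusted p under 0.05. In edgeR the 630 became 397 without BMAd-Pnpla2-/- AL replicate 3, and the split became 173 higher and 541 lower when samples were scaled by total counts alone. Over all genes the log2 fold change had a median of 1.51e-04, with 64 genes above 1 and 232 below -1. All 3 BMAd-Pnpla2-/- AL samples lay above all BMAd-Pnpla2+/+ AL samples in 418 genes (2.56%), and below them in 459 (2.81%). The 95% confidence interval lay wholly within a log2 fold change of 1 in either direction for 13036 genes (79.9% of those tested), and for 94.3% of the 12810 genes averaging 50 or more counts.

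**Figure D1:**
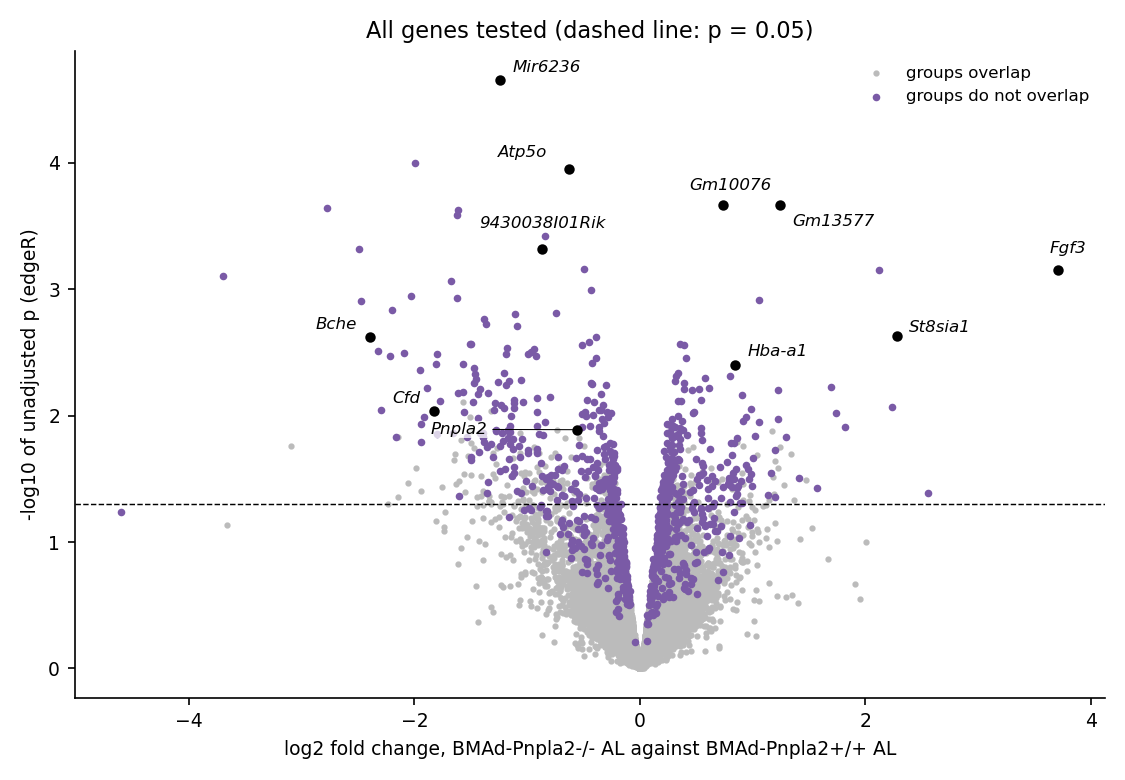
All 16306 genes tested, with the log2 fold change of BMAd-Pnpla2-/- AL against BMAd-Pnpla2+/+ AL on the x axis and the negative log10 of the unadjusted edgeR p on the y axis. Purple points are genes whose 2 groups do not overlap, the dashed line is the threshold of 0.05, and named genes are in black. Mir6236 stands highest, and Fgf3 and St8sia1 lie to the right among genes with low counts.

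The targeted gene was lower in every BMAd-Pnpla2-/- AL sample. Pnpla2 (ENSMUSG00000025509.15; GRCm38 chromosome 7, 141455198 to 141460743, forward strand) had CPM values of 279, 164, 191 and 183 in BMAd-Pnpla2+/+ AL replicates 1 to 4 and 130.0, 159 and 126 in BMAd-Pnpla2-/- AL replicates 1 to 3. The groups did not overlap, but replicate 2 of the deleted group lay close to the lowest sample of the other. The log2 fold change was -0.56 (standard error 0.18, 95% confidence interval -0.97 to -0.15, unadjusted p = 0.0129, padj = 0.998). It was -0.37 without BMAd-Pnpla2+/+ AL replicate 1. The alleles used remove exons 2 to 7, which are 871 of the 2625 bases of the 9-exon transcript Pnpla2-203. A gene count holds reads from the exons that stay as well as from cells that do not recombine, so it does not isolate the deletion. Adipoq, behind which Cre is placed in both genotypes, had 26.6, 22.3, 13.3 and 16.9 CPM in the 4 BMAd-Pnpla2+/+ AL and 8.16, 15.5 and 7.27 CPM in the 3 BMAd-Pnpla2-/- AL samples, with overlap. Its log2 fold change was -0.94 (standard error 0.32, unadjusted p = 0.0178). Sp7, the Osterix gene, had 14.1, 8.24, 10.5 and 12.2 CPM against 7.69, 17.3 and 12.9 CPM, and its log2 fold change was 0.16 (standard error 0.27, unadjusted p = 0.562), or -0.13 without BMAd-Pnpla2-/- AL replicate 2.

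Genes of the mature adipocyte were lower as a group in BMAd-Pnpla2-/- AL samples. Of 20 genes of adipocyte identity and adipokines, 19 were tested, 18 had a log2 fold change below 0, and the median was -1.02. An unadjusted p under 0.05 was reached by 10 of them (52.6%, against 3.86% of all genes tested), all lower, and 0 passed padj. Cd36, a fatty acid translocase that some blood and endothelial cells also express, was the 1 gene above 0, at 0.22, and was at -0.19 without BMAd-Pnpla2-/- AL replicate 2. In bulk RNA, fewer adipocytes and less RNA of these genes in each adipocyte cannot be told apart.

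Cfd, which encodes the adipokine adipsin (complement factor D), had 830.0, 273, 287 and 326 CPM in BMAd-Pnpla2+/+ AL and 75.1, 199.7 and 87.3 CPM in the 3 BMAd-Pnpla2-/- AL samples. The groups did not overlap, replicate 1 of the first stood far above the rest, and replicate 2 of the second was nearest to the first. Its log2 fold change was -1.83 (standard error 0.53, unadjusted p = 0.00918). Pck1, the cytosolic phosphoenolpyruvate carboxykinase that supplies glycerol 3-phosphate for re-esterification, had 25.1, 8.29, 13.8 and 11.7 CPM against 1.895, 7.93 and 4.15 CPM, again without overlap. Its log2 fold change was -1.66 (standard error 0.53, unadjusted p = 0.0138). Plin4, a perilipin of the adipocyte, had 218, 78.3, 82.8 and 85.7 CPM against 22.2, 69.1 and 31.99 CPM. Its log2 fold change was -1.501 (standard error 0.52, unadjusted p = 0.0212). In all 3 genes BMAd-Pnpla2+/+ AL replicate 1 was the highest sample, and BMAd-Pnpla2-/- AL replicate 2 the highest of its group.

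The promoters of these 3 genes, the adipocyte genes with the largest log2 fold changes among those without overlap, are shown because the genes share this pattern. The sequences are RefSeq's promoter windows of 300 bases around a start site, on GRCm38.p6, 5′ to 3′ on the strand of the gene: Cfd at chr10:79890603-79890902 (+), Pck1 at chr2:173152823-173153122 (+) and Plin4 at chr17:56109733-56110032 (-). Capitals mark any match, on either strand, to the TATA box core TATAAA, the CCAAT box CCAAT, the nuclear receptor element AGGTCA or the C/EBP site TTGCNNAA.
Cfd: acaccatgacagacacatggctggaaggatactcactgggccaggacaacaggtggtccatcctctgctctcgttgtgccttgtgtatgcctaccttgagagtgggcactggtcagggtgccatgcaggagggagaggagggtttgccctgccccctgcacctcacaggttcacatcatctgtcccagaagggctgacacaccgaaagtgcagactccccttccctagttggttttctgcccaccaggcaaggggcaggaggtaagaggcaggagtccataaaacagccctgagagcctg
Pck1: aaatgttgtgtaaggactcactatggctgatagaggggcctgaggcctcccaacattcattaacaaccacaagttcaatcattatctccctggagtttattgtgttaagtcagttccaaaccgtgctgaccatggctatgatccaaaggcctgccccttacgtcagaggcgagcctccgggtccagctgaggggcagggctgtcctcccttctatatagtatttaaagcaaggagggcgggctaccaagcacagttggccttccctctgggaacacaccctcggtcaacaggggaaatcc
Plin4: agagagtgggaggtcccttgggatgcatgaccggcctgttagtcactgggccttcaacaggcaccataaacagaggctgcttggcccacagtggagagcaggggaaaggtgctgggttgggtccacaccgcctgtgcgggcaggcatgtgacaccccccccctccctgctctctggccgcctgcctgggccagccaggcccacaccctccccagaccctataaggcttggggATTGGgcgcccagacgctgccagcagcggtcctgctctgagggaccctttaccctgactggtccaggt
The only match was the CCAAT box of Plin4, on the reverse strand. Of 32851 promoters of this length, 37.4% hold a CCAAT box, 13.6% a TATA box core, 16.3% the nuclear receptor element and 10.8% the C/EBP site.

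The other adipocyte genes differed in how far the groups overlapped. Plin1 had 175, 60.9, 79.9 and 70.6 CPM in BMAd-Pnpla2+/+ AL and 26.6, 65.8 and 25.1 CPM in BMAd-Pnpla2-/- AL samples, and its log2 fold change was -1.303 (unadjusted p = 0.0289). Cidec, which fuses and enlarges lipid droplets, had 94.6, 25.6, 35.5 and 33.4 CPM against 9.84, 25.9 and 9.88 CPM, with a log2 fold change of -1.64 (unadjusted p = 0.0203). In both, BMAd-Pnpla2-/- AL replicate 2 lay among BMAd-Pnpla2+/+ AL replicates 2 to 4. Lower values with an unadjusted p under 0.05 were also measured for Thrsp, a lipogenic regulator (log2 fold change -1.35, no overlap), for the carbonic anhydrase gene Car3 (-1.33) and for the adipokine genes Lep (-1.499) and Retn (-1.02), the last 3 with overlap. The fatty acid binding protein gene Fabp4, at -0.41 (95% confidence interval -1.05 to 0.23), and lipoprotein lipase Lpl, at -0.27 (-0.88 to 0.35), had intervals that include 0.

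**Figure D2:**
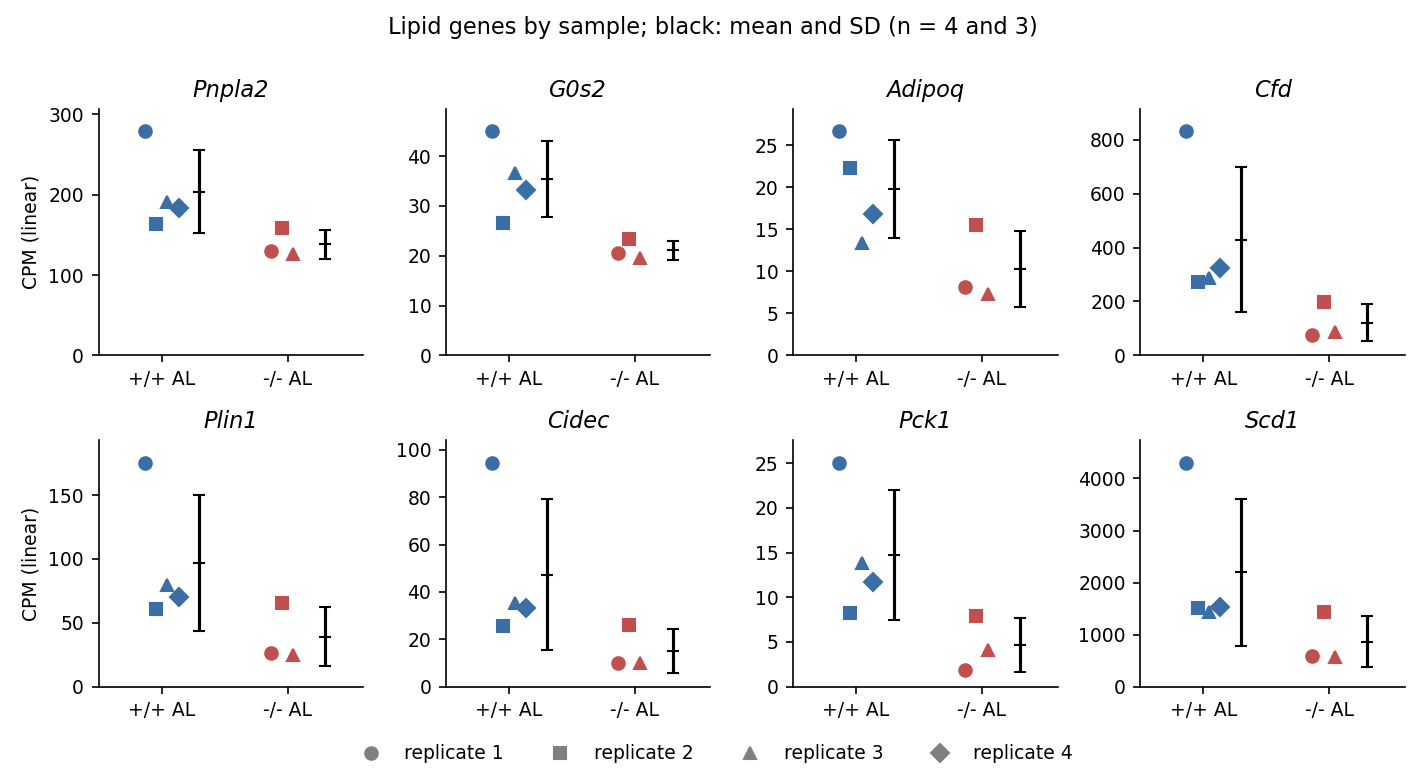
CPM on a linear axis of 8 lipid genes in each sample, BMAd-Pnpla2+/+ AL in blue and BMAd-Pnpla2-/- AL in red, with circles, squares, triangles and diamonds for replicates 1 to 4 and the mean with its SD in black. BMAd-Pnpla2+/+ AL replicate 1 is the highest sample in every panel, and BMAd-Pnpla2-/- AL replicate 2 is the highest of its group in every panel.

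The size of the difference in adipocyte genes rested on single samples. The summed level of the 19 genes was 3402, 1539, 1703 and 1604 CPM in BMAd-Pnpla2+/+ AL and 795, 1720.0 and 864 CPM in the 3 BMAd-Pnpla2-/- AL samples, so replicate 2 of the latter exceeded 3 of the 4 former. Leaving out BMAd-Pnpla2+/+ AL replicate 1 gave a median of -0.65 with 6 genes lower at an unadjusted p under 0.05, and leaving out BMAd-Pnpla2-/- AL replicate 2 gave -1.62 with 16. Without BMAd-Pnpla2-/- AL replicate 1 or replicate 3 the counts were 3 and 3, and the medians -0.83 and -0.89. The median was below 0 in each of the 7 fits that left out 1 sample.

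Of the 19 enzymes and regulators of lipolysis, 18 were tested. Their median log2 fold change was -0.0542, with 5 genes lower and 0 higher at an unadjusted p under 0.05 (27.8%, against 3.86% of all genes). The ATGL inhibitor G0s2 had 44.9, 26.6, 36.6 and 33.2 CPM in BMAd-Pnpla2+/+ AL and 20.5, 23.3 and 19.7 CPM in BMAd-Pnpla2-/- AL samples, without overlap. Its log2 fold change was -0.74 (standard error 0.17, unadjusted p = 0.00155), the smallest p of any gene on the lists of adipocyte and lipid genes. Ces1d, a carboxylesterase that hydrolyses triacylglycerols, was at -0.89 (unadjusted p = 0.0141), also without overlap, and the others of the 5 were Pnpla2, Plin1 and Cidec. Hormone-sensitive lipase Lipe was at -0.72 (95% confidence interval -1.46 to 0.0183). The ATGL activator Abhd5 was at -0.00619 (-0.24 to 0.23) and Mgll at 0.0903 (-0.15 to 0.33), so both intervals lie within a log2 fold change of 1 in either direction.

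De novo lipogenesis gave 2 genes lower and 0 higher of 14 tested at an unadjusted p under 0.05 (14.3%, against 3.86% of all genes), with a median of -0.15. Scd1, stearoyl-CoA desaturase, had 4303, 1509, 1435 and 1532 CPM against 589, 1430.3 and 573 CPM. The highest BMAd-Pnpla2-/- AL sample stood just below the lowest BMAd-Pnpla2+/+ AL sample, and its log2 fold change was -1.35 (unadjusted p = 0.0334). The other of the 2 was Thrsp, while fatty acid synthase Fasn was at -0.703 (unadjusted p = 0.118) and acetyl-CoA carboxylase Acaca at -0.497 (unadjusted p = 0.0813). Among 11 perilipins and droplet proteins tested, Plin1, Plin4 and Cidec were lower and 0 were higher at an unadjusted p under 0.05. That share was 27.3%, against 3.86% of all genes, and the list's median was -9.55e-04. Perilipin 2 (Plin2), the perilipin of most other cells, was at 0.11 (95% confidence interval -0.21 to 0.43). Of 18 genes of fatty acid uptake and triglyceride synthesis, Pck1 alone had an unadjusted p under 0.05 (5.56%). Of 16 adipogenic transcription factors and coactivators tested, the sterol regulatory factor Srebf1 alone did (6.25%), at -0.36 (unadjusted p = 0.0343). The shares of these last 2 lists lie near the 3.86% of all genes. Pparg, the main factor of adipocyte differentiation, was at 0.0137 (95% confidence interval -0.49 to 0.52). Genes of fatty acid oxidation (21 tested), cholesterol synthesis (18), insulin signalling (13) and lipid-handling macrophages (12) had 0 members at an unadjusted p under 0.05 with edgeR, and their medians lay between -0.0692 and -0.04002. The insulin-responsive glucose transporter gene Slc2a4 was at -0.00524 (95% confidence interval -0.24 to 0.23).

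**Figure D3:**
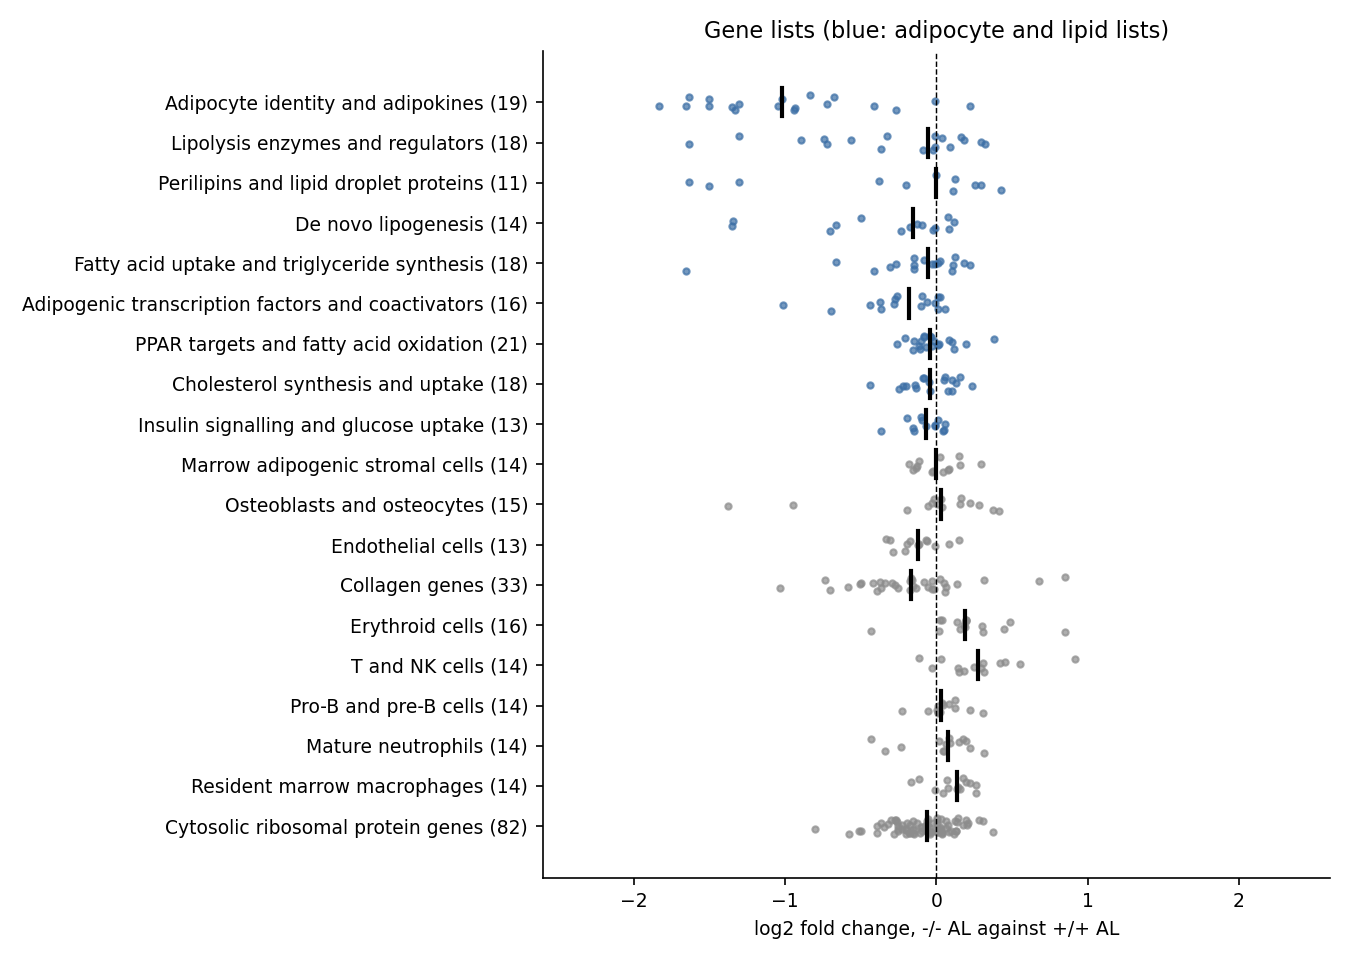
Log2 fold changes of the tested genes of 19 lists, 1 point a gene, with the number tested after each name, blue for adipocyte and lipid lists and grey for others, the list's median as a black bar and the median of all genes as a dashed line. The adipocyte list has its median at -1.02, and the other lists have theirs between -0.18 and 0.27. The ribosomal list includes 5 pseudogenes, of which 1 lies to the left of the axis.

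Stromal and osteoblast lists cover other cells in which Osterix or Adipoq can be active. The 14 genes of marrow adipogenic stromal cells had a median of 2.91e-04 and 0 genes at an unadjusted p under 0.05, and the chemokine gene Cxcl12 was at 0.07902 (95% confidence interval -0.31 to 0.47). Of 15 osteoblast and osteocyte genes tested, the median was 0.0309. An unadjusted p under 0.05 was reached by 1 gene (6.67%, against 3.86% of all genes), the osteocyte gene Dmp1, at -1.37 (unadjusted p = 0.04098). The collagen gene of bone matrix Col1a1 was at -0.0571, with a wide 95% confidence interval of -1.304 to 1.19. Osteoclast genes (10 tested) had a median of -0.17 and chondrocyte genes (4 tested of 9) a median of -0.37, and neither list held a gene at an unadjusted p under 0.05 in edgeR. Of 33 collagen genes tested, 25 were below 0, with a median of -0.17, and of 13 endothelial genes 11 were, with a median of -0.12. The collagen and endothelial lists also held 0 genes at an unadjusted p under 0.05. The collagen median was -0.0347 without BMAd-Pnpla2-/- AL replicate 1 and -0.378 without BMAd-Pnpla2-/- AL replicate 2.

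Of 16 erythroid genes 15 had a log2 fold change above 0, with a median of 0.19. An unadjusted p under 0.05 was reached by 2 (12.5%, against 3.86% of all genes), both globin genes, and 0 passed padj. Hba-a1 had 7729, 13593, 14696 and 15498 CPM in BMAd-Pnpla2+/+ AL and 25678, 23378 and 20516 CPM in BMAd-Pnpla2-/- AL samples, and its log2 fold change was 0.85 (standard error 0.22, unadjusted p = 0.00396). Hba-a2 is its near-identical copy, and reads placed at both genes are outside these counts, which makes the level of each uncertain. The beta globin gene Hbb-bs was at 0.49 (unadjusted p = 0.0336). The summed level of the list was 18469.8, 35432, 32618 and 30881 CPM against 51162, 38700 and 39348 CPM, without overlap, but the list's median was -0.0568, with 11 of 16 genes below 0, without BMAd-Pnpla2-/- AL replicate 1 and 0.00762 without BMAd-Pnpla2+/+ AL replicate 1. The latter sample was the lowest of the 7 in erythroid genes and the highest in adipocyte genes.

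Of 14 genes of T and NK cells, 12 were above 0, the median was 0.27, and 2 had an unadjusted p under 0.05 (14.3%, against 3.86% of all genes). The NK receptor gene Ncr1 had 3.96, 4.98, 6.92 and 6.04 CPM against 7.58, 8.37 and 8.09 CPM, a log2 fold change of 0.55 (unadjusted p = 0.0236), and the granule gene Nkg7 had 43.5, 46.6, 49.8 and 51.6 CPM against 64.3, 50.9 and 63.3 CPM, a log2 fold change of 0.31 (unadjusted p = 0.01899). The list's summed level was 192 to 264 CPM in BMAd-Pnpla2+/+ AL and 271 to 276 CPM in BMAd-Pnpla2-/- AL samples, and its median was above 0 in all 7 fits that left out 1 sample. The lists of neutrophil precursors, mature neutrophils, resident macrophages, megakaryocytes, stem and progenitor cells and both stages of B cells had medians between -0.0467 and 0.14 with 0 genes at an unadjusted p under 0.05. Genes above 0 were also 12 of 14 in each B cell list, and 11 of 14 in mature neutrophils and in resident macrophages. They were 6 of 12 in neutrophil precursors, 4 of 11 in megakaryocytes and 8 of 14 in stem and progenitor cells. Monocytes and dendritic cells (11 tested, median -0.0753) had 1 such gene (9.09%, against 3.86% of all genes), Clec9a, a lectin of dendritic cells, at -0.84 (unadjusted p = 0.0252). Eosinophils, basophils and mast cells (13 tested, median 0.0431) also had 1 (7.69%), the eosinophil granule gene Prg3, at 0.82 (unadjusted p = 0.0279). The summed level of the latter list was 832, 900.3, 759.6 and 742 CPM in BMAd-Pnpla2+/+ AL and 675, 1251 and 1408 CPM in BMAd-Pnpla2-/- AL samples, so BMAd-Pnpla2-/- AL replicates 2 and 3 were the highest of the 7 and replicate 1 the lowest. No gene at an unadjusted p under 0.05 was on the interferon, DNA replication or circadian lists in edgeR, with medians between -0.0556 and 0.0408.

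Among single genes that averaged 50 or more counts and whose groups did not overlap, the smallest p belonged to the microRNA gene Mir6236. RefSeq (GRCm38.p6) places the mature RNA at chr9:110281353-110281371 on the forward strand. It is shown with its seed, bases 2 to 8, in capitals, as the sequence of the gene with the smallest p.
mmu-miR-6236: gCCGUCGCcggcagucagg
Mir6236 had 17.1, 14.8, 21.6 and 15.4 CPM in BMAd-Pnpla2+/+ AL and 7.32, 7.14 and 7.42 CPM in the 3 BMAd-Pnpla2-/- AL samples. The deleted group was tight and lay wholly below the other, with -1.24 as the log2 fold change (standard error 0.16, unadjusted p = 2.22e-05, padj = 0.362). The libraries were of mRNA, so these reads are not a measure of the mature microRNA, and which RNA they come from was not tested.

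The other 9 of the 10 lower genes with the smallest p had log2 fold changes from -1.63 to -0.44. Atp5o, which encodes a subunit of the mitochondrial ATP synthase, had 38.3, 42.3, 40.1 and 37.2 CPM against 27.2, 23.3 and 25.9 CPM, a log2 fold change of -0.63 (unadjusted p = 1.12e-04). Rps28, a protein of the small ribosomal subunit, was at -0.497, the zinc finger gene Zfp622 at -0.44 and the cytoskeletal gene Nav3 at -1.11. The protein-coding gene 9430038I01Rik was at -0.87, and the unnamed protein-coding gene Gm11273 and the processed pseudogenes Gm13436 and Rps10-ps2 at -1.63, -0.84 and -1.38. G0s2 completes these 10 genes. Among such genes with an unadjusted p under 0.05, the largest log2 fold changes below 0 belonged to Glb1l2, a beta-galactosidase-like gene (-1.94), Cfd, Pck1, Gm11273 and Slc9b2, a sodium/proton exchanger (-1.62).

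In the other direction, the long noncoding RNA gene Gm10076 had 28.6, 32.7, 33.5 and 36.1 CPM in BMAd-Pnpla2+/+ AL and 60.9, 45.2 and 57.3 CPM in BMAd-Pnpla2-/- AL samples, a log2 fold change of 0.73 (unadjusted p = 2.15e-04). The 10 such genes with the smallest p also held Dad1, a subunit of oligosaccharyltransferase (0.41), Trappc1 of the TRAPP tether (0.39), the transporter Slc35b1 (0.32) and the synaptogyrin Syngr2 (0.35). The cytochrome oxidase subunit gene Cox8a was at 0.34, and the others were the processed pseudogene Gm13577 (1.24), the immunoglobulin segment Igkv5-43 (1.06), Hba-a1 and St8sia1. Pianp (1.74) joined St8sia1, Gm13577, Igkv5-43 and Hba-a1 as the 5 with the largest log2 fold changes above 0 by the same criteria. By unstranded counts Pianp varied widely within a genotype. It ran from 3.85 to 16.1 CPM in BMAd-Pnpla2+/+ AL and from 3.32 to 72.1 CPM in BMAd-Pnpla2+/+ CR samples, against 17.98 to 40.6 CPM in BMAd-Pnpla2-/- AL samples. Segments of the immunoglobulin loci are near-copies of each other, and of 187 tested 10 were higher and 9 lower at an unadjusted p under 0.05 (10.2%, against 3.86% of all genes).

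St8sia1, the GD3 ganglioside synthase, had 1.17, 1.46, 0.896 and 1.52 CPM in BMAd-Pnpla2+/+ AL and 10.4, 1.64 and 6.399 CPM in BMAd-Pnpla2-/- AL samples. Replicate 2 of the latter lay next to the highest of the former, and the log2 fold change was 2.28 (standard error 0.53, unadjusted p = 0.00234). Fgf3, a fibroblast growth factor gene, was counted 0, 6, 2 and 0 times in the 4 BMAd-Pnpla2+/+ AL and 31, 19 and 28 times in the 3 BMAd-Pnpla2-/- AL samples (unadjusted p = 6.99e-04, padj = 0.818). It was at or near 0 in the first group and detected in every sample of the second.

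The CR samples of the same genotypes, 4 BMAd-Pnpla2+/+ and 3 BMAd-Pnpla2-/-, share no sample with the AL comparison. The BMAd-Pnpla2-/- CR libraries carry no strand, so all 14 libraries were compared by unstranded counts, and the type of library and the genotype cannot be told apart within CR. Mir6236 had 15.1, 19.9, 9.56 and 10.3 CPM in BMAd-Pnpla2+/+ CR and 4.43, 7.15 and 5.25 CPM in BMAd-Pnpla2-/- CR samples, and its log2 fold change was -1.29 (unadjusted p = 1.65e-04, padj = 0.0546). St8sia1 had 2.56, 2.23, 2.22 and 3.27 CPM against 22.04, 5.52 and 12.1 CPM, with a log2 fold change of 2.36 (unadjusted p = 4.23e-04, padj = 0.0603). Fgf3 had 0.0474, 0.137, 0 and 0 CPM against 0.685, 0.947 and 0.784 CPM (unadjusted p = 3.66e-04, padj = 0.0587). These 3 genes and G0s2 (-1.04, unadjusted p = 6.51e-04) stood on the same side on both diets, and they were picked for naming after their CR values were seen. Pnpla2 itself had 804, 991, 1015 and 502 CPM against 177, 219 and 267 CPM under CR, a log2 fold change of -1.904 (unadjusted p = 4.37e-06, padj = 0.0386).

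**Figure D4:**
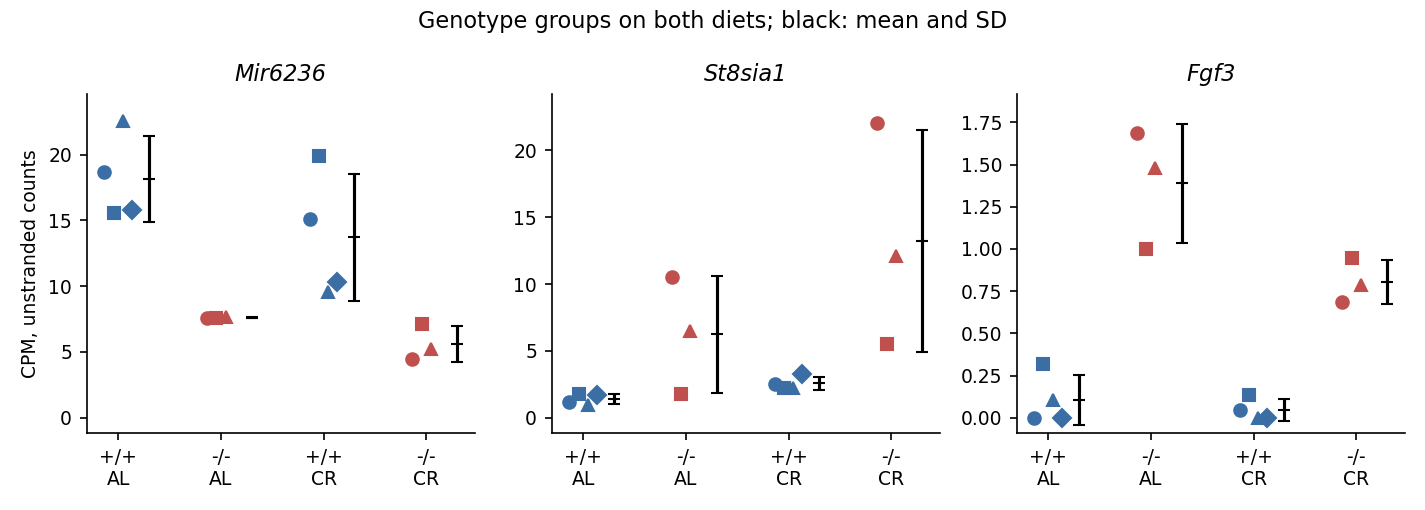
CPM from unstranded counts of Mir6236, St8sia1 and Fgf3 in each of the 14 samples, BMAd-Pnpla2+/+ in blue and BMAd-Pnpla2-/- in red, with circles, squares, triangles and diamonds for replicates 1 to 4 and the mean with its SD in black. On both diets every red point lies below every blue point for Mir6236 and above them for Fgf3. For St8sia1 every red point lies above every blue point under CR only. Among AL samples BMAd-Pnpla2-/- replicate 2 (1.737 CPM) lies just below BMAd-Pnpla2+/+ replicate 2 (1.741 CPM) in these unstranded counts.

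Several genes with small p values AL were near 0 under CR. There the log2 fold change was 0.0319 for Atp5o, 0.0153 for Rps28, 0.00405 for Dad1 and 0.11 for Hba-a1, each with an unadjusted p above 0.05. Of the 611 genes at an unadjusted p under 0.05 AL that were also tested in the CR pair, 149 (24.4%) were so there, 119 of them in the same direction, against 23.2% of all genes tested under CR. The adipocyte list had a median of -0.902 under CR, with 11 genes lower at an unadjusted p under 0.05. For the erythroid list the median under CR was 0.776, with 3 genes higher and 0 lower at the same threshold. For the T and NK list it was -0.0931, with 2 genes higher and 3 lower. The difference between the 2 genotype effects was tested as an interaction in the same model, and 0 genes passed a padj of 0.05, while an unadjusted p under 0.05 was reached by 1836.

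Genes around the targeted locus were counted separately, since the genotypes differ there. Of 111 genes tested whose start lies within 5 Mb of that of Pnpla2, 5 (4.5%) had an unadjusted p under 0.05, near the 3.86% of all genes. The shares were 4.55% of 88 genes around Adipoq and 4.07% of 123 around Sp7. Besides Pnpla2 the 5 were 9430038I01Rik, Fgf3, the cyclin gene Ccnd1 (0.54) and Ifitm10 (0.54). The first had 8.82, 7.59, 9.904 and 8.95 CPM against 5.37, 4.31 and 4.81 CPM, without overlap, and the log2 fold change under CR was -0.14 (unadjusted p = 0.331).

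Genes of ribosomes and mitochondria lay on both sides of 0. The 82 genes tested that carry names of cytosolic ribosomal proteins comprised 77 protein-coding genes and 5 pseudogenes. Of the 77, 12 were lower and 2 higher at an unadjusted p under 0.05 (18.2%, against 3.86% of all genes), with a median of -0.05299, and of the 5 pseudogenes, all below 0, 1 was past the same threshold. Rps28 had 239, 273, 281 and 246 CPM against 199.8, 167 and 186 CPM, and Rpl19 was at -0.39 (unadjusted p = 0.00352). Of 25 nuclear genes of oxidative phosphorylation 10 were above 0 and 15 below, with a median of -0.0718. An unadjusted p under 0.05 was reached by 4 of these 25, 3 lower and 1 higher, against 3.86% of all genes. Ndufb8, a gene of complex I, was at -0.45 (unadjusted p = 0.002599). Of 10 genes of the mitochondrial genome tested, 6 were above 0 and 4 below. An unadjusted p under 0.05 was reached by 3 (30.0%, against 3.86% of all genes). They were mt-Nd5 (0.36) and mt-Nd4 (0.301), higher without overlap, and mt-Co3, lower and named here after its values were seen.

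Processed pseudogenes, the class of copies that arise by reverse transcription of an mRNA, had log2 fold changes mostly below 0, and the class was picked after its values were seen. Of 509 tested, 402 were below 0, and the median log2 fold change was -0.52, against 0.00162 for the 13820 protein-coding genes. At an unadjusted p under 0.05, 120 were lower and 7 higher, which is 25.0% of the class, against 3.86% of all genes. They took 0.145, 0.197, 0.168 and 0.131 percent of the reverse-strand counts in BMAd-Pnpla2+/+ AL replicates 1 to 4 and 0.135, 0.107 and 0.124 percent in BMAd-Pnpla2-/- AL replicates 1 to 3, so the shares overlapped through BMAd-Pnpla2-/- AL replicate 1 and BMAd-Pnpla2+/+ AL replicate 4. Read pairs placed at more than 1 position made up 7.55, 10.8, 9.61 and 8.71 percent and 10.8, 8.97 and 9.002 percent in the same samples, and their part in the result was not tested. The median stayed below 0 in each fit that left out 1 sample, from -0.64 to -0.39. Under CR, with unstranded counts, the median of 492 pseudogenes was -0.0746. Of these, 20 were higher and 14 lower at an unadjusted p under 0.05, a threshold met by 23.2% of all genes tested under CR. A processed pseudogene shares most of its sequence with its parent gene, so each of these counts is uncertain.

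**Figure D5:**
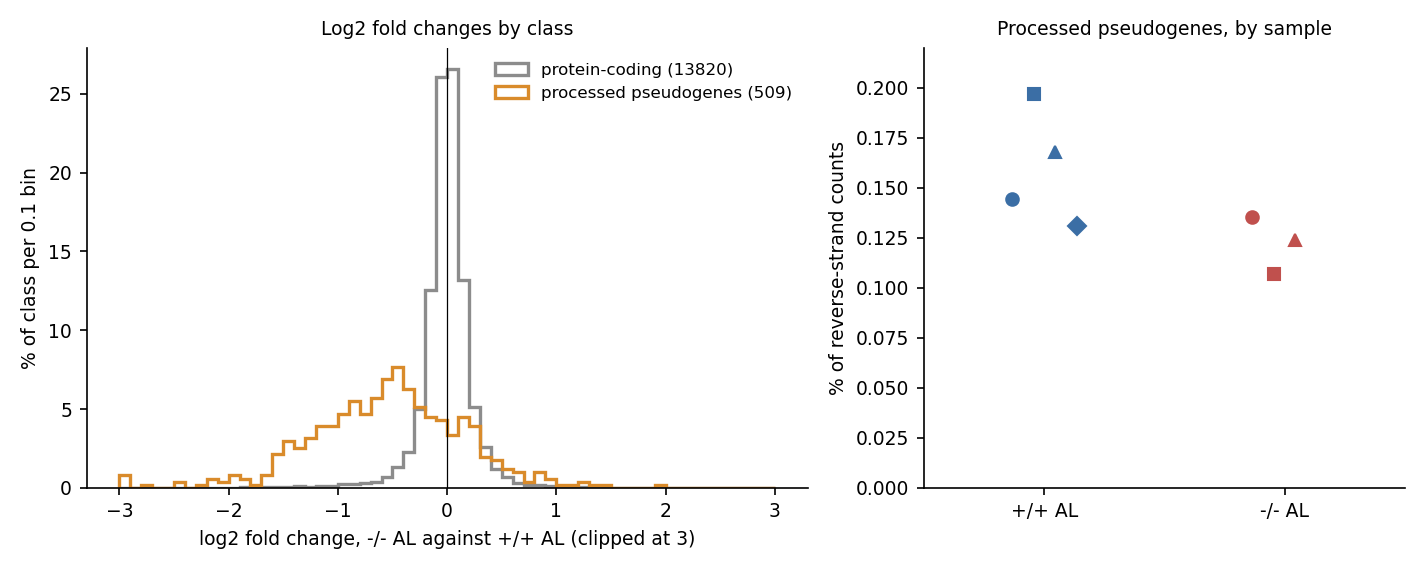
Left, the share of each class of genes in bins of 0.1 of the log2 fold change of BMAd-Pnpla2-/- AL against BMAd-Pnpla2+/+ AL, for 13820 protein-coding genes in grey and 509 processed pseudogenes in orange, with values beyond 3 drawn at 3. Right, the percent of reverse-strand counts on processed pseudogenes in each sample, with circles, squares, triangles and diamonds for replicates 1 to 4. The orange distribution is centred to the left of 0 and is wider, and the sample shares overlap.

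DESeq2 on the 7 samples placed 13 genes past both a padj of 0.05 and an absolute log2 fold change of 1. Mir6236 had the smallest padj (4.92e-07), and Gm11273, Gm13577, Rpl3-ps2, Fgf3, St8sia1, Igkv5-43, Gm7618, Gm6192, Adora1, Bche, Rps10-ps2 and Calml3 followed. Adora1, the A1 adenosine receptor, which inhibits lipolysis in adipocytes, was counted 158, 50, 42 and 56 times in BMAd-Pnpla2+/+ AL and 8, 25 and 9 times in BMAd-Pnpla2-/- AL samples, without overlap, with a DESeq2 log2 fold change of -2.33 (padj = 0.0244). Bche, butyrylcholinesterase, was counted 84, 35, 32 and 33 against 7, 15 and 2 times, with -2.41 (padj = 0.0433). The calmodulin-like gene Calml3 was counted 207, 156, 128 and 113 against 41, 83 and 26 times. With edgeR on the same counts the padj of these 3 genes was 0.998.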

How the data were processed

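Each sample was RNA of the distal tibial plugs of 2 mice, sequenced as paired-end mRNA libraries that the study describes as strand-specific, and 11 of the 14, all AL samples among them, carry strand in their counts. The authors checked reads with FastQC 0.11.9 and aligned them to mm10 with STAR at default parameters, and the annotation release is not given in the sources used here. The deposited values are raw counts per gene, and those of the reverse strand were used (55401 genes in the files of the 7 samples). Reads placed at several positions are outside these counts. Symbols and positions came from the count matrix and GENCODE M21.

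Genes were kept by edgeR's filter on low counts, scaled by TMM and tested with the robust quasi-likelihood test of edgeR 4.0.16 (R 4.3.3), with Benjamini-Hochberg adjustment. DESeq2 1.42.0 and limma-voom (limma 3.58.1) were alternatives, as were other scalings, no filter, unstranded counts, models over more libraries, a replicate block and leaving out each sample. DESeq2 was the study's tool. The steps were tested on simulated counts.

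The genes named were Pnpla2, Adipoq and Sp7; in each direction the 10 with the smallest p, and the 5 with the largest log2 fold change at an unadjusted p under 0.05, among genes averaging 50 or more counts whose groups did not overlap; up to 15 genes past padj 0.05 and a log2 fold change of 1 in DESeq2; members of the adipocyte and lipid lists; the leading genes of other lists; and neighbours of Pnpla2. The comparison, gene lists and naming rule were chosen with earlier results of these data known. P-values weigh the genotype difference against the spread among these samples of pooled animals. In edgeR that spread is estimated with information shared across genes. Some results are not reported here.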

Additional observations from a re-analysis of the deposited data

Results flagged for a closer look

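Among 114 sets of values in the 4 BMAd-Pnpla2+/+ AL samples, 14 held a sample far above the other 3 by Dixon's criterion, which chance alone meets in about 1 of 20 groups. In 12 of them the sample was replicate 1. Its level was 830.0 CPM for Cfd, 218 CPM for Plin4, 175 CPM for Plin1, 94.6 CPM for Cidec, 7.15 CPM for Retn and 884 CPM for Car3. It was 4303 CPM for the desaturase gene Scd1, 89.4 CPM for the carboxylase gene Acaca, 7.11 CPM for the adenosine receptor gene Adora1 and 3.78 CPM for Bche. The summed levels in this sample were 3402 CPM for the adipocyte list and 5471 CPM for the list of de novo lipogenesis. These sums hold genes that are also counted singly, so the 114 sets are not independent. The rate of 1 of 20 therefore gives no expected number for them as a whole.

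In the remaining 2 the sample was replicate 2, with 2.41 CPM of the processed pseudogene Gm6192 and a summed 28.6 CPM of the skeletal muscle genes tested.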

How the results depend on the processing

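The number of genes past padj 0.05 was 0 with edgeR in all 18 fits but 1, and the fit without a filter on low counts gave 2, of which 1 was also past an absolute log2 fold change of 1. DESeq2 gave 18 and 13 on the 7 samples, and 18 and 14 on the deposited matrix of 14 libraries. Leaving out 1 sample gave 0 and 0 each time, a log2 fold change of Pnpla2 from -0.67 to -0.37 and a median of the adipocyte list from -1.62 to -0.65, so the sign of both held. The numbers of the samples do not pair them: the deviations of same-numbered samples correlated at -0.12, -0.25 and -0.054, and no BMAd-Pnpla2-/- AL sample correlated best with its own number. With the replicate block, 0 genes passed padj 0.05 and 409 had an unadjusted p under 0.05.

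Of 70 named genes, 62 kept the sign of their log2 fold change in every fit. The 8 that did not had a padj above 0.05 in each of these fits. Pparg was at -0.0138 with total counts alone, -0.17 with limma-voom and -0.02400 with the replicate block. With limma-voom, Abhd5 was at 0.0492, Cxcl12 at -0.0836 and Col1a1 at 0.42, and with unstranded counts Slc2a4 was at 0.004804. Over the 7 fits that left out 1 sample the log2 fold change ran from -0.28 to 0.17 for Pparg, -0.0938 to 0.0455 for Abhd5, -0.15 to 0.205 for Cxcl12, -0.38 to 0.31 for Col1a1, -0.0419 to 0.0545 for Slc2a4, -0.13 to 0.42 for Sp7, -0.19 to 0.41 for Cd36 and -0.0347 to 0.196 for Plin2, and for Sp7, Cd36, Cxcl12 and Plin2 the sign below 0 came only without BMAd-Pnpla2-/- AL replicate 2. The causes were not tested.

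Depth was even, with 19688849 to 21441514 counts a sample, and the small number of samples and their spread set the width of the intervals, which is large for adipocyte genes. The biological coefficient of variation shared by all genes was 0.190. Counts of a gene with a close copy, and of genes with few counts such as Fgf3, are uncertain.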

Other observations

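A few genes differed between samples of the same group by far more than between the genotypes, and were picked after their values were seen. Trim12a was counted 2 times in BMAd-Pnpla2+/+ AL replicate 2 and 450 to 1079 times in the other 6 samples. The ribosomal protein gene Rpl29 was counted 977 times in the same sample and 4525 to 13524 times in the others. The interferon-inducible gene Ifi202b was counted 74 times in BMAd-Pnpla2+/+ AL replicate 2 and 84 and 127 times in BMAd-Pnpla2-/- AL replicates 2 and 3, and 0 times in the other 4 samples. Eno1b was counted 8 to 13 times in 3 samples and 458 to 592 times in the other 4, which include both genotypes. The macrophage receptor gene Marco ran from 30 to 526 counts in BMAd-Pnpla2+/+ AL and from 20 to 169 in BMAd-Pnpla2-/- AL samples, and the immunoglobulin segment Iglc1 from 310 to 1837 and from 188 to 1715. The muscle myosin gene Myh1 was counted 57 times in BMAd-Pnpla2+/+ AL replicate 2 and at most 3 times elsewhere.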
